A study of Mus musculus with 8 samples.

Results

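Ntrk2 encodes TrkB, a receptor tyrosine kinase for the neurotrophins BDNF and neurotrophin-4. It is 1 of the 24972 genes listed in tables of liver RNA from mice with and without forced expression of ATF3, a stress-induced transcription factor. Ntrk2 was picked because its level differed between these groups, so its own difference is given as a description with no test. C57BL/6J mice received a virus into a vein at 10 weeks of age, and liver was taken 8 weeks later, at 18 weeks. The control group (Null) had AAV8-ALB-Null and the other group (ATF3) had AAV8-ALB-ATF3. Both groups thus carry an adeno-associated virus of serotype 8, which reaches hepatocytes well, and ALB in the names is read here as the albumin promoter of hepatocytes. Each group has 4 libraries, named Null 1 to Null 4 and ATF3 1 to ATF3 4, while the design text speaks of 8 mice per group. The labels do not tie a library to a mouse or give the sex of the mice, so p-values measure only the spread between these libraries, which may be technical.

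TrkB is best known from neurons. BDNF binding pairs 2 receptors, whose kinase domains phosphorylate each other and recruit adaptors that lead to the Ras and MAP kinase, PI3K and Akt, and phospholipase C gamma pathways. Shorter forms of TrkB keep the ligand-binding part and lack the kinase domain. In mouse liver, Ntrk2 RNA is known as one of the transcripts that are more abundant in females than in males.

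Ntrk2 lies on the plus strand of mouse chromosome 13, at chr13:58806569-59133970 in GENCODE on GRCm38, the assembly that mm10 stands for, and RefSeq starts it at base 58806472. GENCODE lists 10 transcripts, 7 of them protein coding. The kinase-bearing protein of 821 residues comes from Ntrk2-201 and Ntrk2-207, and a protein of 476 residues from Ntrk2-202 and Ntrk2-204. The tables give 1 total per gene. The transcript length implied by the ratio of both tables was 7625 to 7722 bases in all 8 libraries, so the files do not show which form was made in either group. Only 0.652% of the 31-base stretches in Ntrk2 transcripts occur in transcripts of other genes. The 4 GENCODE genes that overlap Ntrk2 are not listed in the tables.

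The sequence before the Ntrk2 start is shown because the gene differed with an overexpressed transcription factor. It is the plus strand, from the RefSeq promoter table on GRCm38.p6, at chr13:58806319-58806471, with 60.8% G or C and 10 CpG pairs. The stretches before the second and the third RefSeq starts of Bdnf, which encodes the TrkB ligand BDNF, are shown beside it (chr2:109676782-109677031 and chr2:109692186-109692435, plus strand). Capitals mark the AP-1 motif TGANTCA in the former and the CRE core TGACG, read on the minus strand, in the latter. These are the only Bdnf windows with either motif, and its other windows are not shown.

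Ntrk2: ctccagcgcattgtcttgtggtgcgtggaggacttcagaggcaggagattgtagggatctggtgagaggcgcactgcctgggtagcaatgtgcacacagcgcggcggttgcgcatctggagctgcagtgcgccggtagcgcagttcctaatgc
Bdnf start 2: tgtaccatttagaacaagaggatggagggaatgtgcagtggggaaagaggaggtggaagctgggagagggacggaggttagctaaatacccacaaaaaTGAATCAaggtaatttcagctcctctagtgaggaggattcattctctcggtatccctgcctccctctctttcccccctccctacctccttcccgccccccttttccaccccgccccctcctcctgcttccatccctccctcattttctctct
Bdnf start 3: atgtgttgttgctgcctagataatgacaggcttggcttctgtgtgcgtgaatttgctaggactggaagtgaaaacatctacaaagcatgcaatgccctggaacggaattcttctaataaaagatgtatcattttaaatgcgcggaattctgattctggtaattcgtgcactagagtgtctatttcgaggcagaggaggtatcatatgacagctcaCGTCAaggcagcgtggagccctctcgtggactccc

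The whole RefSeq window of Ntrk2, which runs past the printed part, held no match on either strand to the CRE (TGACGTCA), its core (TGACG), the AP-1 motif (TGANTCA), the ATF4 composite motif (TGATGNAA) or the STAT motif (TTCNNNGAA). That 1 window spans chr13:58806319-58806618. Other GENCODE starts of Ntrk2, such as that of Ntrk2-201 at base 58807697, lie outside it and were not searched. Of 32851 RefSeq promoter windows of the same length, 1.79% held the CRE, 20.8% the core, 7.81% the AP-1 motif, 3.97% the ATF4 motif and 8.30% the STAT motif. The CRE contains the core, so those matches overlap. Of the 7 windows of Bdnf, 4 held a match: a STAT motif 122 bases before the first start, the AP-1 motif 152 bases before the second, the core 35 bases before the third, and an ATF4 motif in the seventh. The share of all windows with any of these motifs was not computed, so 4 of 7 is a description. A match is a match of letters and shows no binding.

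The normalized counts summed to 23919261 to 28446045 per library, and the unscaled depth is not known from these tables. On the first principal component, with 57.7% of the variance, Null and ATF3 libraries were separate. Null 4 stood apart on the second component (16.7% of the variance), at 52.1 against -27.7 to 13.3 in the others. The locus named Mir6236 held 89.4% of the TPM (a level per transcript length with the same total in each library) in Null 1 and at most 37.0% elsewhere. TPM are therefore also given with Mir6236 and Rn45s taken out and the rest scaled to the same sum in each library.

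Ntrk2 was a low transcript in control liver and a well-expressed one with ATF3. Its normalized counts, which are estimated read counts scaled between libraries, were 23.8, 36.8, 56.3 and 24.6 in Null 1 to Null 4. In ATF3 1 to ATF3 4 they were 2073, 2401, 2496 and 2336. The groups did not overlap. Null 3 was the highest control, and the ATF3 libraries lay close together with ATF3 1 the lowest. The means were 35.4 ± 15.2 and 2327 ± 181 (SD, n = 4 each), and the coefficient of variation was 43.0% in Null and 7.79% in ATF3.

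The ratio of the means was 65.8, and the lowest ATF3 library was 36.8 times the highest Null library. On the log2(normalized count + 1) scale the difference was 6.08, with a within-group SD of 0.41. Without Null 4 it was 5.94. By this difference Ntrk2 stood 12th of 13301 genes that reached a normalized count of 10 in at least 4 libraries, and 11th of 12667 when provisional and small-RNA symbols were left out. TPM as deposited were 0.0192, 0.211, 0.359 and 0.163 in Null, and 12.3, 19.0, 19.4 and 20.1 in ATF3. The low value of Null 1 goes with its Mir6236 share. Without Mir6236 and Rn45s the Null 1 value was 0.183, and the group means were 0.259 ± 0.117 and 20.02 ± 0.907 TPM (SD, n = 4 each).

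Per length, Ntrk2 ranked low among the genes detected in Null and in the upper part of the gene list in ATF3. By mean TPM it ranked 13129th of 24946 genes in Null and 3850th in ATF3. Its rank was 12684 to 13884 over the Null libraries, where 44.3% to 49.2% of genes lay below it. In ATF3 libraries its rank was 3717 to 4185, with 83.2% to 85.1% of genes below. By mean normalized count, which favours long transcripts, it ranked 11695th and 1584th of 24972. Genes at 0 count here as below Ntrk2. TPM was above 0 for 15463 to 16394 genes in Null libraries and 15811 to 16474 in ATF3 libraries.

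Atf3 itself had normalized counts of 24.2, 22.5, 24.5 and 20.3 in Null and 5611, 5886, 7053 and 6722 in ATF3, which matches the labels. Reads of the viral and the endogenous Atf3 cannot be told apart in these tables. By normalized count, both genes were highest in Null 3 among controls and in ATF3 3 among ATF3 libraries, and both were lowest of the ATF3 libraries in ATF3 1. The order of ATF3 2 and ATF3 4 was the other way round for Ntrk2, and the lowest control was Null 1 for Ntrk2 and Null 4 for Atf3. These orders depend on the scale. In TPM without Mir6236 and Rn45s, Atf3 was highest in Null 1 among controls (0.696, against 0.685 in Null 3). Both genes were then lowest of the ATF3 libraries in ATF3 2. With 4 libraries per group, fewer than the 6 a coefficient needs here, no correlation within groups is given.

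**Figure D1:**
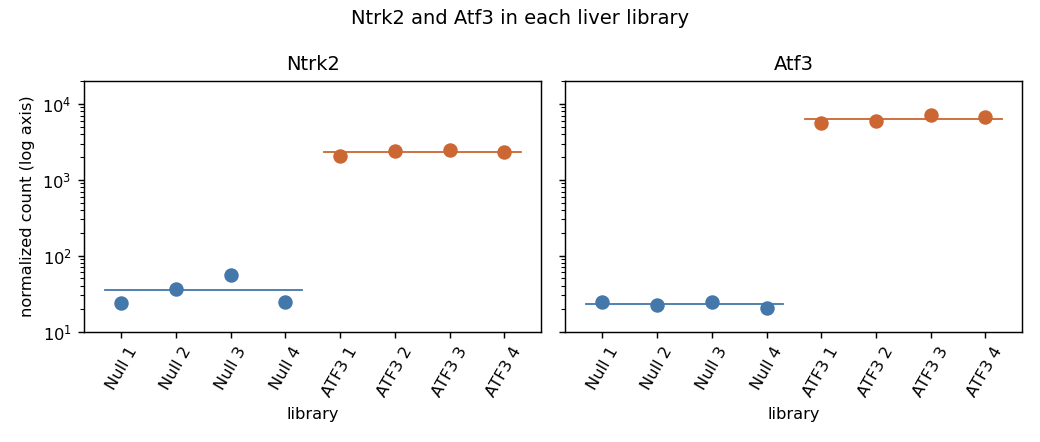
Normalized counts of Ntrk2 and Atf3 (log axis) in each of the 8 libraries, with points for libraries and lines for group means. Ntrk2 lies between 23.8 and 56.3 in Null and between 2073 and 2496 in ATF3, and Atf3 is also separate between groups.

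Of the neurotrophins, the ligands of Trk receptors, Bdnf was higher with ATF3. Its normalized counts were 41.9, 65.4, 33.5 and 29.9 in Null and 244, 144, 241 and 211 in ATF3. No ATF3 library came down to the level of a Null library, which held for 13.7% of all genes tested (12.6% had the ATF3 libraries all lower). Bdnf rose by 2.31 on the log2 scale (SE 0.26, adjusted p = 0.00017, limma over all 13301 genes). Per length, its mean TPM without Mir6236 and Rn45s was 0.655 ± 0.250 in Null and 3.85 ± 1.04 in ATF3 (SD, n = 4), so it stayed below that of Ntrk2 in ATF3 libraries. Of the 31-base stretches of Bdnf transcripts, 13.5% also occur in transcripts of other genes.

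Ntf3, which encodes neurotrophin-3, the main TrkC ligand, was low in all libraries: 13.3, 8.50, 12.3 and 10.1 in Null and 30.4, 16.01, 17.7 and 23.2 in ATF3. It passed narrowly, with a log2 difference of 0.90 (SE 0.28, adjusted p = 0.0474). Leaving out any 1 library ended that call, with adjusted p from 0.0514 to 0.123. Ntf5, which encodes neurotrophin-4, the other TrkB ligand, was at most 2.52 in any library and was not tested. Over all genes tested, 21.2% were called, 11.4% higher and 9.82% lower in ATF3.

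Among 7 other neurotrophin receptors, 3 were tested and limma called none at the adjusted threshold, with 0 higher and 2 lower at an unadjusted p under 0.05. Ntrk3, the TrkC receptor of neurotrophin-3, was not tested and overlapped between groups, at 4.21 to 18.5 in Null and 3.74 to 11.7 in ATF3. Per length, the Null mean of Ntrk3 was 0.148 ± 0.088 TPM, within the spread of Ntrk2 there (0.259 ± 0.117). With ATF3 the Ntrk3 mean of 0.117 ± 0.062 lay far below that of Ntrk2 (20.02 ± 0.907; SD, n = 4 throughout).

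Ngfr, which encodes the p75 receptor shared by all neurotrophins, was 104 to 138 in Null and 86.6 to 112 in ATF3 (log2 difference -0.36, SE 0.14, adjusted p = 0.105), and passed without Null 4 (adjusted p = 0.0396). Sort1, the sortilin receptor of proneurotrophins, was 1346 to 1990.0 in Null and 1152 to 1556 in ATF3 (-0.40, SE 0.14, adjusted p = 0.0689). It passed without Null 1 (adjusted p = 0.0129) and without ATF3 1 (0.0483). The signs of Ngfr and Sort1 turned with the deposited TPM (0.24 and 0.42). Sorl1, a sorting receptor that also binds TrkB, had a log2 difference of 0.33 (SE 0.18, adjusted p = 0.234). The sortilin relatives Sorcs1, Sorcs2 and Sorcs3 reached at most 18.5 in any library and were not tested.

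**Figure D2:**
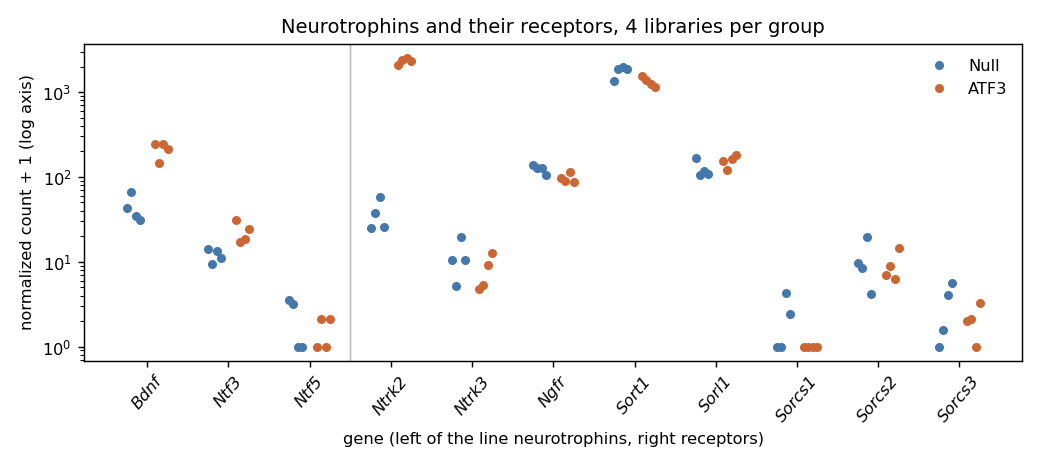
Normalized count + 1 (log axis) of each neurotrophin and neurotrophin receptor gene, 1 point per library, 4 Null and 4 ATF3 libraries. Bdnf, Ntrk2 and, at low counts, Ntf3 lie higher in all ATF3 libraries, and the other receptors overlap between groups.

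Of 107 genes of the neurotrophin pathway, 106 were listed and, Ntrk2 left out, 89 were tested. In ATF3, 7 were called higher, 16 lower and 66 did not pass, where 11.4% and 9.82% of all genes tested were called higher and lower. Their median log2 difference was -0.14, against 0.0068 over all genes tested. Of the 7, Shc2 and Shc4 passed the filter only through the ATF3 libraries. The 16 lower genes became 8 without ATF3 3 or without ATF3 4, 10 without ATF3 2 and 25 without Null 4, while the 7 higher ones became 3 without ATF3 3. With the deposited TPM, whose median over all genes was 0.68, no pathway gene was called lower and only Bdnf, Ntf3 and Shc2 were called higher. Relative to that median, Bdnf was at 0.92, but Ntf3 and Shc2 were at -0.061 and -0.26. When TPM were rescaled by median of ratios, 7 pathway genes were called higher and 14 lower.

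Of 8 genes tested that process proneurotrophins, 2 fell and 6 did not pass, where 21.2% of all genes tested were called. Pcsk6, a proprotein convertase, fell from 2566 to 3034 in Null to 626 to 769 in ATF3 (log2 difference -1.93, SE 0.10, adjusted p = 8.21e-07). Pcsk7, another convertase, fell by 0.43 (adjusted p = 0.0148), a call lost without ATF3 3 (0.0554) and a sign that turned with the deposited TPM. Furin, the widely expressed convertase, did not pass (-0.14, adjusted p = 0.777).

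Of 20 tested adaptors and other signalling partners of Trk receptors, 3 fell, where 9.82% of all genes tested were called lower. Shc2 and Shc4 were called higher too, but they reached the filter only through the ATF3 libraries, so their calls follow from how they entered the test and their values are a description. The adaptors of the Shc family link the receptor to Ras. Shc4 was 2.34, 2.23, 1.504 and 0 in Null and 16.3, 20.5, 24.0 and 21.0 in ATF3. Shc2 was 0, 2.79, 9.08 and 7.76 in Null and 31.5, 23.7, 39.7 and 30.3 in ATF3. Shc1, the widely expressed member, did not pass (adjusted p = 0.924). Sh2b2, an adaptor of the SH2B family, fell by 1.39 (SE 0.19, adjusted p = 0.000544), from 75.03 to 119 in Null to 29.8 to 40.9 in ATF3. Plcg1, the phospholipase C gamma that Trk receptors activate, fell by 0.40 (SE 0.09, adjusted p = 0.00942), with its sign turned in the deposited TPM (0.47). Sh2b3 passed at -0.42 (adjusted p = 0.0418), and its call was lost without any 1 library other than ATF3 1, with adjusted p up to 0.112, and its sign turned with the deposited TPM.

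In receptor trafficking and turnover, 2 genes rose and 2 fell of 13 tested. Of all genes tested, 11.4% were called higher and 9.82% lower. Ehd4, an endosomal protein, had a log2 difference of 0.56 (adjusted p = 0.0175) and Gipc1, a scaffold protein, 0.38 (0.0386). Nedd4l, a ubiquitin ligase, had -0.53 (0.0221) and Traf6, also a ubiquitin ligase, -0.36 (0.0223), and the signs of Nedd4l and Traf6 turned with the deposited TPM. All 4 calls were lost without ATF3 3, with adjusted p of 0.0562 to 0.101. Those of Ehd4, Nedd4l and Traf6 were also lost without ATF3 4, that of Nedd4l without Null 2 or ATF3 1, and that of Gipc1 without Null 1, Null 2, Null 3, ATF3 1 or ATF3 2.

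Of 15 Ras and MAP kinase genes, limma called 4 lower and 0 higher, and the counts were the same at an unadjusted p under 0.05. At the adjusted threshold, 9.82% of all genes tested were called lower and 11.4% higher. Mapkapk2 and Rps6ka1, kinases downstream of MAP kinases, fell by 0.49 (adjusted p = 0.0102) and 0.51 (0.0126). Map2k5, the kinase of ERK5, and Sos1, a Ras exchange factor, passed at -0.42 (0.0403) and -0.27 (0.0431). Both calls were lost without Null 1, Null 2, ATF3 2, ATF3 3 or ATF3 4, that of Map2k5 also without Null 3 and that of Sos1 without ATF3 1, with adjusted p up to 0.133. All 4 signs turned with the deposited TPM. Mapk3, an ERK gene, did not pass (adjusted p = 0.290).

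Of 11 PI3K and Akt genes, 1 rose and 2 fell, where 11.4% and 9.82% of all genes tested were called higher and lower. Mtor, the growth kinase, fell by 0.49 (SE 0.09, adjusted p = 0.00387). Pik3r1, a regulatory subunit of PI3K, rose by 0.49 (SE 0.12, adjusted p = 0.0155), a call lost without ATF3 3 (0.0554) or ATF3 4 (0.0544). Akt1, the kinase that PI3K activates, passed at -0.44 (adjusted p = 0.0212), lost without Null 1, Null 3, ATF3 2, ATF3 3 or ATF3 4, with adjusted p up to 0.0714. The signs of Mtor and Akt1 turned with the deposited TPM (0.39 and 0.48).

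Of 12 tested genes that Trk signalling is known to induce, or that damp it, 1 fell and 11 did not pass, where 21.2% of all genes tested were called. Dusp4, a phosphatase of MAP kinases, was 81.7 to 90.5 in Null and 31.1 to 60.4 in ATF3 (log2 difference -0.82, SE 0.21, adjusted p = 0.0181). Egr1, an immediate early gene, was 472, 588, 201 and 103 in Null and 125, 102, 103 and 85.8 in ATF3 (-1.41, SE 0.46, adjusted p = 0.0545). Its 2 highest controls were Null 1 and Null 2, and Null 4 lay within the range of the ATF3 libraries. Fos, Nr4a1, Dusp6, Spry1, Spry2 and Spry4 did not pass, and Vgf was listed at 0 in all libraries. Egr1 and these 7 genes, and Furin, Shc1 and Mapk3 above, were named after their values were seen.

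Of the 5 tested partners of p75, Ripk2 and Maged1 passed lower, where 9.82% of all genes tested were called lower. Ripk2, a kinase, had -0.45 (adjusted p = 0.0198) and Maged1, a MAGE family protein, -0.38 (0.0498). Both calls were lost without Null 3, ATF3 2 or ATF3 4, that of Ripk2 also without Null 1 and that of Maged1 without Null 2, ATF3 1 or ATF3 3, with adjusted p up to 0.115, and both signs turned with the deposited TPM.

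**Figure D3:**
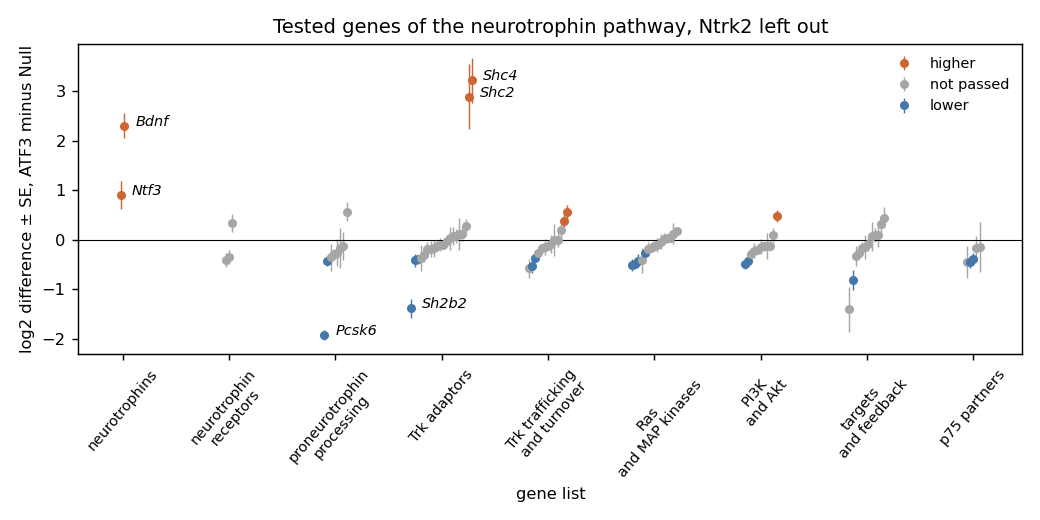
Log2 difference (ATF3 minus Null, ± SE) of each tested gene of the neurotrophin pathway by list, from log2(normalized count + 1) in 4 libraries per group, Ntrk2 left out. Shc4, Shc2 and Bdnf lie highest and Pcsk6 lowest, and 66 of 89 genes did not pass. Shc4 and Shc2 passed the filter only through the ATF3 libraries, so their points are a description. Many of the lower genes change sign with the deposited TPM, whose median over all genes is 0.68.

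Set among 56 genes of receptor tyrosine kinases, Ntrk2 went from the lower ranks to the upper ones. It ranked 34th to 38th by TPM in the Null libraries and 7th to 9th in the ATF3 libraries. By mean TPM without Mir6236 and Rn45s it was 8th in ATF3, at 20.02 ± 0.907, between the hepatocyte growth factor receptor Met (21.0 ± 1.61) and Epha1 (19.7 ± 2.44). These neighbours do not differ from it beyond their spread. Egfr, Erbb3, Csf1r, Insr, Kdr and Ryk also lay above it.

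Of the other receptor tyrosine kinases 38 were tested, 2 rose, 6 fell and 30 did not pass, with a median of -0.20. Their share of calls is near the 21.2% over all genes tested and is no result about these receptors. Met fell from 4581 to 5076 in Null to 2095 to 2246 in ATF3 (log2 difference -1.15, SE 0.08, adjusted p = 5.00e-06). Egfr, the receptor of epidermal growth factor, fell by 1.80 (SE 0.27, adjusted p = 0.00109). Ephb4, an ephrin receptor, fell by 0.81 (adjusted p = 0.000105), and the fibroblast growth factor receptors Fgfr3 and Fgfr2 by 0.94 (0.00136) and 0.61 (0.00358). With the deposited TPM the calls of these 5 genes were lost, with Met at -0.17 (adjusted p = 0.842), Egfr at -0.79 (0.456) and Fgfr3 at -0.067 (0.924), and the signs of Ephb4 and Fgfr2 turned (0.087 and 0.29). All 5 calls were kept in every other alternative, among them TPM rescaled by median of ratios. The 2 that rose were Epha2, an ephrin receptor (0.90, adjusted p = 0.00493), and Flt3, a haematopoietic receptor (0.87, adjusted p = 0.0269), and both were named after their values were seen. That count became 1 without Null 2, ATF3 2, ATF3 3 or ATF3 4.

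**Figure D4:**
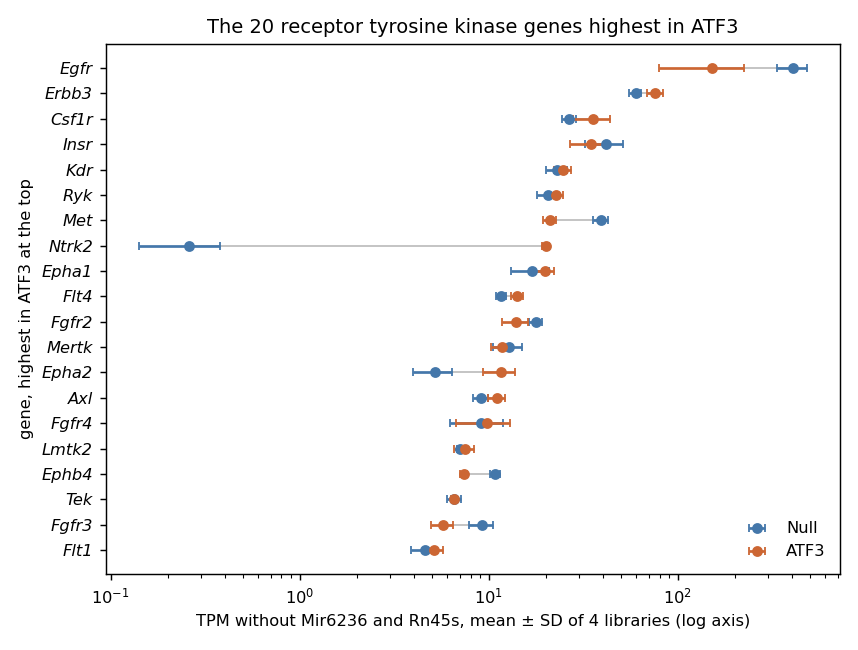
TPM without Mir6236 and Rn45s (log axis, mean ± SD of 4 libraries) of the 20 receptor tyrosine kinase genes highest in ATF3, for Null and ATF3. Ntrk2 is at 0.259 in Null and 20.02 in ATF3.

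Ntrk2 is itself on a list of 30 genes known as more abundant in female than male mouse liver. Of the others 18 were tested, of which 9 rose, 3 fell and 6 did not pass, with a median log2 difference of 0.95. Over all genes tested, 11.4% were called higher and 9.82% lower. Cyp2b9, Sult2a1, Sult2a2 and Sult3a1 passed the filter only through the ATF3 libraries, and Cyp17a1 only through the Null libraries. The counts and the median are therefore no support for a shared direction. The sulfotransferase Sult2a1 was 0 to 1.55 in Null and 831 to 2125 in ATF3, given without a test. The cytochrome P450 gene Cyp2a4 was 8.05 to 15.6 in Null and 2870.4 to 4686 in ATF3 (adjusted p = 9.77e-09), and Cyp2b9 was 0 to 4.63 and 2029 to 3227, also without a test. Of the 3 that fell, Cyp17a1 was 104 to 222 in Null and 0 to 3.33 in ATF3 (log2 difference -5.99), given without a test. The others were Cyp3a41a (-1.55, adjusted p = 0.0133) and Cyp39a1 (-1.62, adjusted p = 0.00233). All 3 were named after their values were seen, and 1 gene of this list was called lower with the deposited TPM.

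The 6 tested genes with the profile nearest to Ntrk2 were chosen by the root mean square difference of log2(normalized count + 1), centred on each gene's mean, over the 8 libraries. This measure follows the same contrast that picked Ntrk2. It was 0.283 for Cidec, a lipid droplet protein, 0.608 for Apoa4, an apolipoprotein, 0.715 for Sult3a1, a sulfotransferase, 0.800 for Cntnap1, a contactin-associated protein of axons, 0.815 for Tmeff2, a transmembrane protein, and 0.874 for Cyp2c39, a cytochrome P450. The median over all genes tested was 3.07. Cidec went from 33.8, 79.4, 71.0 and 42.4 in Null to 2557, 3075, 4591 and 4290 in ATF3. Of the stretches of Apoa4, Cyp2c39 and Sult3a1 transcripts, 64.5%, 26.9% and 13.8% also occur in other genes' transcripts, so their counts are less certain.

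**Figure D5:**
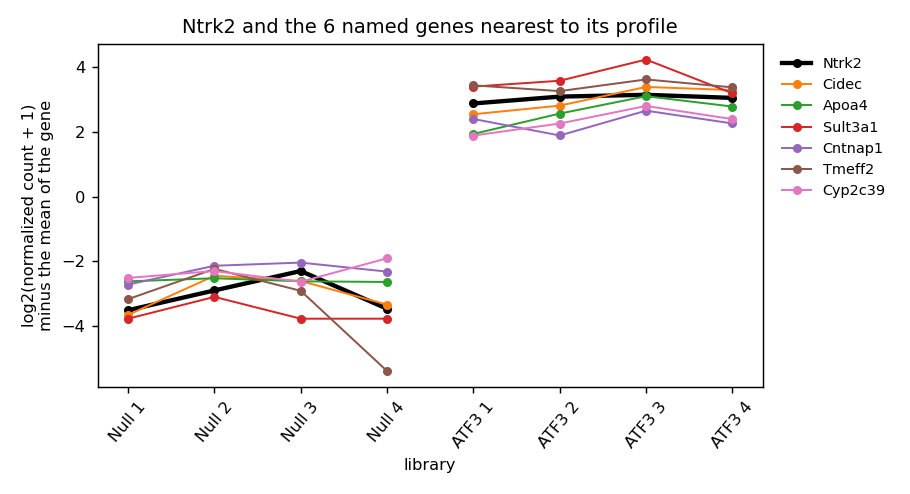
Log2(normalized count + 1) minus the mean of each gene, by library, for Ntrk2 (black) and the 6 genes nearest to it. All 7 lie below their mean in Null and above it in ATF3, and Tmeff2 in Null 4, where it is 0, is the lowest point.

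No tested gene beside Ntrk2 on chromosome 13 was called higher. Of the 5 listed RefSeq genes on each side, 5 of 10 were tested, and limma called 0 higher and 1 lower, also at an unadjusted p under 0.05. Adjusted calls over all genes tested were 11.4% higher and 9.82% lower. Golm1, a Golgi membrane protein 501 kb away, fell by 0.90 (SE 0.18, adjusted p = 0.00637), a call lost with the deposited TPM (-0.062, adjusted p = 0.858). The nearest tested gene, Agtpbp1, a tubulin-modifying enzyme 316 kb away, had a log2 difference of 0.17 (SE 0.13, adjusted p = 0.416). Hnrnpk, Rmi1 and Naa35 did not pass, with adjusted p of 0.378 to 0.588, and the signs of Hnrnpk and Naa35 turned with the deposited TPM. Slc28a3 and A230056J06Rik were at or under 9.51 in all libraries, and Mir7-1, 4930455J16Rik and 4921517D22Rik were listed at 0.

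Liver holds nerve, stellate and other cells that could carry neurotrophin receptors, and in bulk RNA fewer cells of a type and less RNA per cell cannot be told apart. At the adjusted threshold, limma called 21.2% of all genes tested. Of 8 Schwann cell and neuron markers, 3 were tested and limma called 0, also at an unadjusted p under 0.05. Their summed normalized count was 63.0 to 119 in Null and 71.8 to 109 in ATF3, with Elavl4 at 0 in all libraries and Sox10 at most 4.52. Of 8 stellate cell markers, Rgs5 fell (-0.51, adjusted p = 0.0410) and 7 did not pass, with sums of 10626 to 13925 and 9428 to 10791. At an unadjusted p under 0.05 in limma, 0 stellate markers were higher and 3 lower. Their median log2 difference was -0.31, against 0.0068 over all genes tested. In limma, none of the endothelial, macrophage, smooth muscle, mesothelial or lymphocyte markers tested passed, also at an unadjusted p under 0.05. Of 6 cholangiocyte markers Sox9 fell (-1.89, adjusted p = 0.0243), with sums of 887 to 1429 and 893 to 1267. Of 7 hepatocyte markers Ttr rose (1.26, adjusted p = 0.00226) and Cps1 fell (-0.58, adjusted p = 0.0152), and Alb was 1260330 to 2225060 in Null and 2189590 to 2582250 in ATF3. At an unadjusted p under 0.05, 1 hepatocyte marker was higher and 3 lower. Which cells held the Ntrk2 RNA was not tested.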

How the data were processed

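Stranded total RNA libraries of 8 liver samples were sequenced, per the labels' protocols. Bowtie2 and mm10 are named, per the submitters' processing notes, and neither quantifier nor annotation is stated in any label or header. The authors deposited a signal, which is read counts estimated per gene and scaled between libraries (with DESeq, by the table's name), and TPM. With gene and library constants removed, log2 ratios between the tables had SD 0.00435, so the estimates are the same. Of the low values, 12.7% to 26.6% per library were whole multiples of the most frequent one within 0.01, so no reads were recovered and no count model was used. Among TPM rows, 26 names had turned into dates and were left out.

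Differences between ATF3 and Null came from limma 3.58.1 in R 4.3.3 (trend, two-sided) on log2(normalized count + 1), so they understate the change of low genes. Genes needed 10 in at least 4 libraries. The Benjamini-Hochberg threshold was 0.05 over all 13301 genes. The members and lists were chosen with earlier results of these data known. Named are Ntrk2, Atf3, each neurotrophin and receptor, up to 5 called genes per list by smallest p, 5 genes on each side of Ntrk2 and the 6 nearest profiles. Neighbours are those RefSeq genes that the tables list, since only 2 of the 10 nearest are listed. Some listed genes are not reported here and were left out of the list counts. Alternatives were another pseudocount, filter, scaling or table, robust variance, and each library left out.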

Additional observations from a re-analysis of the deposited data

Results flagged for a closer look

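Among 59 named genes, 111 sets of 4 libraries of a group were examined for 1 library far from the other 3, and 6 were found (chance gives about 1 in 20). Sult3a1 was 0.595 in Null 2 and 0 in the other controls. Pcsk6 was 626 in ATF3 3, against 754 to 769 in the other ATF3 libraries. Pik3r1 was 4388 in ATF3 2, against 5680 to 5751. Dusp4 was 90.5 in Null 2, against 81.7 to 83.0 in the other controls. Sult2a1 was 2125 and Sult2a2 was 1154 in ATF3 3, against 831 to 1034 and 478 to 577 in the other ATF3 libraries. Ntrk2 was not among them.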

How the results depend on the processing

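The Ntrk2 difference kept its direction in every alternative run. On the log2 scale it was 5.93 to 6.33 with 1 library left out, 3.96 with TPM as deposited, 3.48 with TPM rescaled by median of ratios and 4.07 with TPM without Mir6236 and Rn45s (an alternative chosen after seeing the data); adding 1 to such low TPM shrinks the difference. The rank of Ntrk2 in Null was 12944 to 13387 with 1 library left out and 12364 without provisional and small-RNA symbols, and in ATF3 3778 to 3907. With 1 library left out, 1040 to 1965 of all genes were called higher and 851 to 1812 lower, the lowest count of lower genes without ATF3 3. For pathway genes these counts were 3 to 8 and 8 to 25, for receptor tyrosine kinases 1 to 2 and 5 to 8, and for female-biased genes 9 to 10 and 3 to 3. With a mean of at least 50, 4 pathway genes and 1 receptor tyrosine kinase were called higher. With TPM as deposited, 440 of all genes were called higher and 76 lower, 3 pathway genes higher and 0 lower, 0 receptor tyrosine kinases in each direction, and 1 female-biased gene lower. The median over all genes was then 0.68 instead of 0.0068, and 20 of 48 named genes changed sign: Ngfr (0.24), Sort1 (0.42), Hnrnpk (0.87), Naa35 (0.74), Pcsk7 (0.40), Plcg1 (0.47), Sh2b3 (0.34), Nedd4l (0.30), Traf6 (0.45), Mapkapk2 (0.43), Rps6ka1 (0.28), Map2k5 (0.45), Sos1 (0.60), Mtor (0.39), Akt1 (0.48), Ripk2 (0.34), Maged1 (0.56), Ephb4 (0.087), Fgfr2 (0.29) and Stat5a (0.18). Relative to that median, all of these but Hnrnpk (0.19) and Naa35 (0.064) lay below 0, from -0.075 for Sos1 to -0.59 for Ephb4. With TPM rescaled by median of ratios, 1551 of all genes were called higher and 1277 lower. Pathway genes called higher and lower then numbered 7 and 14, and receptor tyrosine kinases 2 and 6. In the 16 alternatives other than TPM as deposited, no named gene changed sign. Of 41 called named genes, 28 kept call and direction in each of those 16 that tested them, and 13 lost the call in at least 1. Many of them were named for a small p or a profile like that of Ntrk2, so kept calls are no separate support. Shc2, Shc4, Cyp2b9, Sult2a1, Sult2a2, Sult3a1 and Tmeff2 passed the filter only through the ATF3 libraries. Ntf3, Shc2 and Shc4 were not tested with a mean of at least 50. No paired analysis was possible because the library titles carry 1 running number and share none between groups. Low counts limit Ntrk2 in Null, where normalized counts were 23.8 to 56.3.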

Other observations

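Of 12 genes of the growth hormone axis, which sets sex differences of mouse liver, 1 fell, 11 did not pass and limma called 0 higher, against 1 higher at an unadjusted p under 0.05. At the adjusted threshold, 21.2% of all genes tested were called. Stat5a was 460 to 535 and 295 to 340 (-0.63, adjusted p = 0.00145), with its sign turned in the deposited TPM (0.18). Stat5b, the main growth hormone effector of liver, had -0.26 (adjusted p = 0.0862), and Cux2, a repressor of male-biased genes, was 12.1 to 15.4 in Null and 11.6 to 74.4 in ATF3 (0.84, adjusted p = 0.256), with ATF3 4 the highest. Prlr, the prolactin receptor on the female-biased list, rose from 1751 to 2624 in Null to 9146 to 10696 in ATF3 (log2 difference 2.18, adjusted p = 3.18e-06). Stat5b, Cux2 and Prlr were named after their values were seen.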
